A study of Mus musculus with 10 samples.

Results

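Members of the claudin family were followed here across alveolar type 2 (AT2) cells that were wildtype, were mutant, or sat beside mutant cells in the same lung. The 9 members (Cldn1, Cldn2, Cldn3, Cldn4, Cldn6, Cldn7, Cldn12, Cldn18 and Cldn23) were matched on gene symbol among the 31053 genes of the count tables, in which 35 symbols begin with Cldn, and 8 of the 9 passed the filter on low counts. Confetti mice (Sftpc-CreERT2; R26R-Confetti) label wildtype AT2 cells in several colours, and gave 1 RFP and 1 YFP library, which the study's methods place 2 weeks after induction although the labels give no time. Red2Kras mice (Sftpc-CreERT2; Red2Kras) couple RFP to the mutant allele and leave YFP+ cells wildtype, and gave 2 libraries (r1 and r2) of each colour at 4 days and at 2 weeks, so that 10 libraries fell into 6 groups. All groups shared the Sftpc-CreERT2 driver, 3 doses of tamoxifen at 0.2 mg per g body weight, 8-week-old mice on a mixed C57BL/6Brd-Tyrc-Brd background, EpCAM+ sorting, and at least 2 pooled lungs per sample, and the 4-day lungs were taken before tamoxifen had washed out.

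Claudins are proteins that cross the cell membrane several times, and their extracellular loops meet those of the neighbouring cell to form the strands of the tight junction. Some members mainly seal the space between cells, whereas others, such as Cldn2, form pores for small cations and water. In the alveolus, Cldn3, Cldn4 and Cldn18 are the best-known claudins, with Cldn18 required for a tight alveolar barrier, and Cldn4 is also known as a gene of injured and regenerating alveolar epithelium.

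The 10 libraries held 2144 to 6213 barcodes and 10742481 to 79927159 unique molecular identifiers (UMIs, each standing for 1 captured RNA molecule), and 1009 to 4223 alveolar cells per library entered the sums after immune, endothelial, mesenchymal and ciliated clusters were discarded. The discarded share was highest, at 42.2%, in 2 weeks YFP r2, and the 2 weeks RFP libraries were the deepest, with medians of 15804 and 13383 UMIs per alveolar cell against 3251.5 to 6714 in the other 8. The 12 AT2 markers summed to 100000 to 263000 TMM-adjusted UMIs per 1000000, lowest in the 2 weeks RFP libraries and 4 days RFP r2. Sftpc, a surfactant gene that defines AT2 cells, had a UMI in 85.0 to 100% of alveolar cells in 9 libraries when each cell was thinned to 2000 UMIs, and in 72.2% in 4 days RFP r2. It also had one in 43.0% of discarded immune and 81.0% of discarded endothelial cells, so a single UMI does not mark an AT2 cell, and clusters called AT2-like held 47.7 to 88.3% of the cells of 7 libraries but 3.68 and 1.7% of the 2 weeks RFP cells and 9.4% of 2 weeks YFP r1. At most 17 barcodes were shared by any pair of libraries, a 0.35% share. Among cells with UMIs of only Xist or only Y-linked genes, 100% had Xist in both Confetti libraries, 82.7 and 85.1% in the 4-day r1 libraries, 35.3 and 25.8% in the 2-week r1 libraries, and 0.0519 to 0.535% in the r2 libraries, so that the groups did not share a sex makeup although the study's methods give mice of both sexes.

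Cldn4 and Cldn3 are neighbours that behaved differently in these libraries, and their promoters are shown first for that reason, with those of Cldn2 and Cldn6, whose levels were also highest in the 2 weeks RFP cells. On GRCm38 (GENCODE M21), Cldn4 is a single-exon gene on the minus strand at chr5:134945119-134946934, and Cldn3 a single-exon gene on the plus strand at chr5:134986214-134987472, 39.3 kb away with 0 annotated genes between them. Cldn3 overlaps Wbscr25 on the opposite strand. Cldn6 lies at chr17:23679249-23682446 on the plus strand, and Cldn2 at chrX:139800828-139811386 on the plus strand. The RefSeq windows (GRCm38.p6, 250 bases before to 50 after the start, written 5′ to 3′ along the gene) were chr5:134946885-134947184 for Cldn4, chr5:134985964-134986263 for Cldn3, chr17:23679115-23679414 for Cldn6 and chrX:139800558-139800857 for Cldn2, and capitals mark each match on either strand to TGANTCA, the AP-1 motif, or GGAATG, the TEAD motif.
Cldn4: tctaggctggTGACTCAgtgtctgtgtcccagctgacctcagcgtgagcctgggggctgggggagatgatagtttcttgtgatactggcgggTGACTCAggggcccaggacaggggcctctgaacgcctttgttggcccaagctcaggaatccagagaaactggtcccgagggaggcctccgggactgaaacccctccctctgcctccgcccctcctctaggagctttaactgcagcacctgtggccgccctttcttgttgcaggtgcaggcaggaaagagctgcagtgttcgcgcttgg
Cldn3: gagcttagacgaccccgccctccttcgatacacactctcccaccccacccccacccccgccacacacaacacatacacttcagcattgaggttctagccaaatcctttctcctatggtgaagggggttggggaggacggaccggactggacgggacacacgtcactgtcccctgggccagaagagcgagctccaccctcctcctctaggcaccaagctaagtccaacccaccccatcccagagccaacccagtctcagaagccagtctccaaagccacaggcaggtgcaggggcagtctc
Cldn6: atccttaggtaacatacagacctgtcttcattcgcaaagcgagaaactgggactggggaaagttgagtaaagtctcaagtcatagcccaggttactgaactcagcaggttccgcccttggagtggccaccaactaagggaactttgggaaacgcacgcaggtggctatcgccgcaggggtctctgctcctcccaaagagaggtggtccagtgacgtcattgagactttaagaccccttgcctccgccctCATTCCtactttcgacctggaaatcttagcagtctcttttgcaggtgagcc
Cldn2: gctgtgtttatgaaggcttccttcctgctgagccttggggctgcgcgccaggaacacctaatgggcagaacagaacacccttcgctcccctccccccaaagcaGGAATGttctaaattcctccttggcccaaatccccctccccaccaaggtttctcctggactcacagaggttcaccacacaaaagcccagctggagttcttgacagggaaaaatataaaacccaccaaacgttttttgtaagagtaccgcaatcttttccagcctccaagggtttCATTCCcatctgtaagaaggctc
The Cldn4 window held 2 AP-1 matches, with first letters 240 and 158 bases before the start, and 0 TEAD matches. Of all 32851 promoter windows, 7.81% held at least 1 AP-1 match and 0.46% at least 2. The Cldn3 window held 0 matches to either motif, the Cldn6 window 1 TEAD match and the Cldn2 window 2, and 14.7% of all windows held at least 1 TEAD match. The NF-kB motif, searched likewise, had 0 matches in these 4 windows and at least 1 in 8.46% of all windows. No AP-1 match overlapped a TEAD match in them. These are letter matches, chosen with the sequences in view, and occupancy of the sites was not measured.

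Cldn3, Cldn18 and Cldn7 made up most of the claudin RNA in every library, with 96.5 to 98.9% of the sum of the 9 members in the Confetti and YFP libraries and 4 days RFP r1, 84.0% in 4 days RFP r2 and 90.0 and 90.4% in 2 weeks RFP, and none of the 3 passed the test in any comparison. Levels are given as CPM, the counts of the summed alveolar cells per 1000000 UMIs of the library size adjusted with edgeR's TMM factors, and because each UMI stands for a captured 3′ end they were not divided by transcript length. Cldn3, a barrier-forming claudin, was at 680 and 595 CPM in Confetti RFP and YFP. In Red2Kras RFP cells (r1 and r2) it was at 737 and 498 CPM at 4 days and at 702 and 945 CPM at 2 weeks, and in YFP cells at 678 and 688 CPM at 4 days and at 686 and 704 CPM at 2 weeks. The 4 Red2Kras YFP libraries lay within 678 to 704 CPM, while the 4 RFP libraries spread on both sides of them. RFP and YFP cells therefore overlapped, and the log2 fold change between them over both time points was 0.04 ± 0.21 (SE, 4 libraries each), adjusted p = 0.943 in edgeR's quasi-likelihood test.

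Cldn18, the alveolar barrier claudin, lies at chr9:99689461-99717267 on the minus strand, overlapped by Gm16004 on the opposite strand. It was at 563 and 554 CPM in the Confetti libraries. RFP cells had 503 and 330 CPM at 4 days and 452 and 1010 CPM at 2 weeks, and YFP cells 656 and 500 CPM at 4 days and 459 and 717 CPM at 2 weeks. Both the lowest and the highest level belonged to RFP libraries labelled r2, and the colours overlapped. The difference between RFP and YFP was -0.47 ± 0.45 on the log2 scale at 4 days (adjusted p = 0.97) and 0.31 ± 0.45 at 2 weeks (adjusted p = 0.748). RefSeq gives Cldn18 start sites in 2 windows, chr9:99717218-99717517 and chr9:99710014-99710313, and 3′ counts do not separate them.

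Cldn7, a claudin also found along the lateral membrane of epithelial cells, lies at chr11:69964779-69967885 on the plus strand and was the one of these 3 that was higher in RFP than in the same-numbered YFP library throughout. It was at 268 and 259 CPM in Confetti RFP and YFP. RFP cells had 327 and 356 CPM at 4 days and 426 and 476 CPM at 2 weeks, and YFP cells 253 and 298 CPM at 4 days and 329 and 350 CPM at 2 weeks. The RFP to YFP ratios of libraries with the same number were 1.29 and 1.19 at 4 days and 1.30 and 1.36 at 2 weeks, so RFP was higher in each, although no source ties a number to shared lungs. The log2 fold change over both time points was 0.34 ± 0.17 with adjusted p = 0.273, and 2 weeks RFP against Confetti gave 0.78 ± 0.26 with adjusted p = 0.0951. Neither passed 0.05 in edgeR's test (0.034 for the latter with the replicate number as a block, where 3163 genes were called in all).

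**Figure D1:**
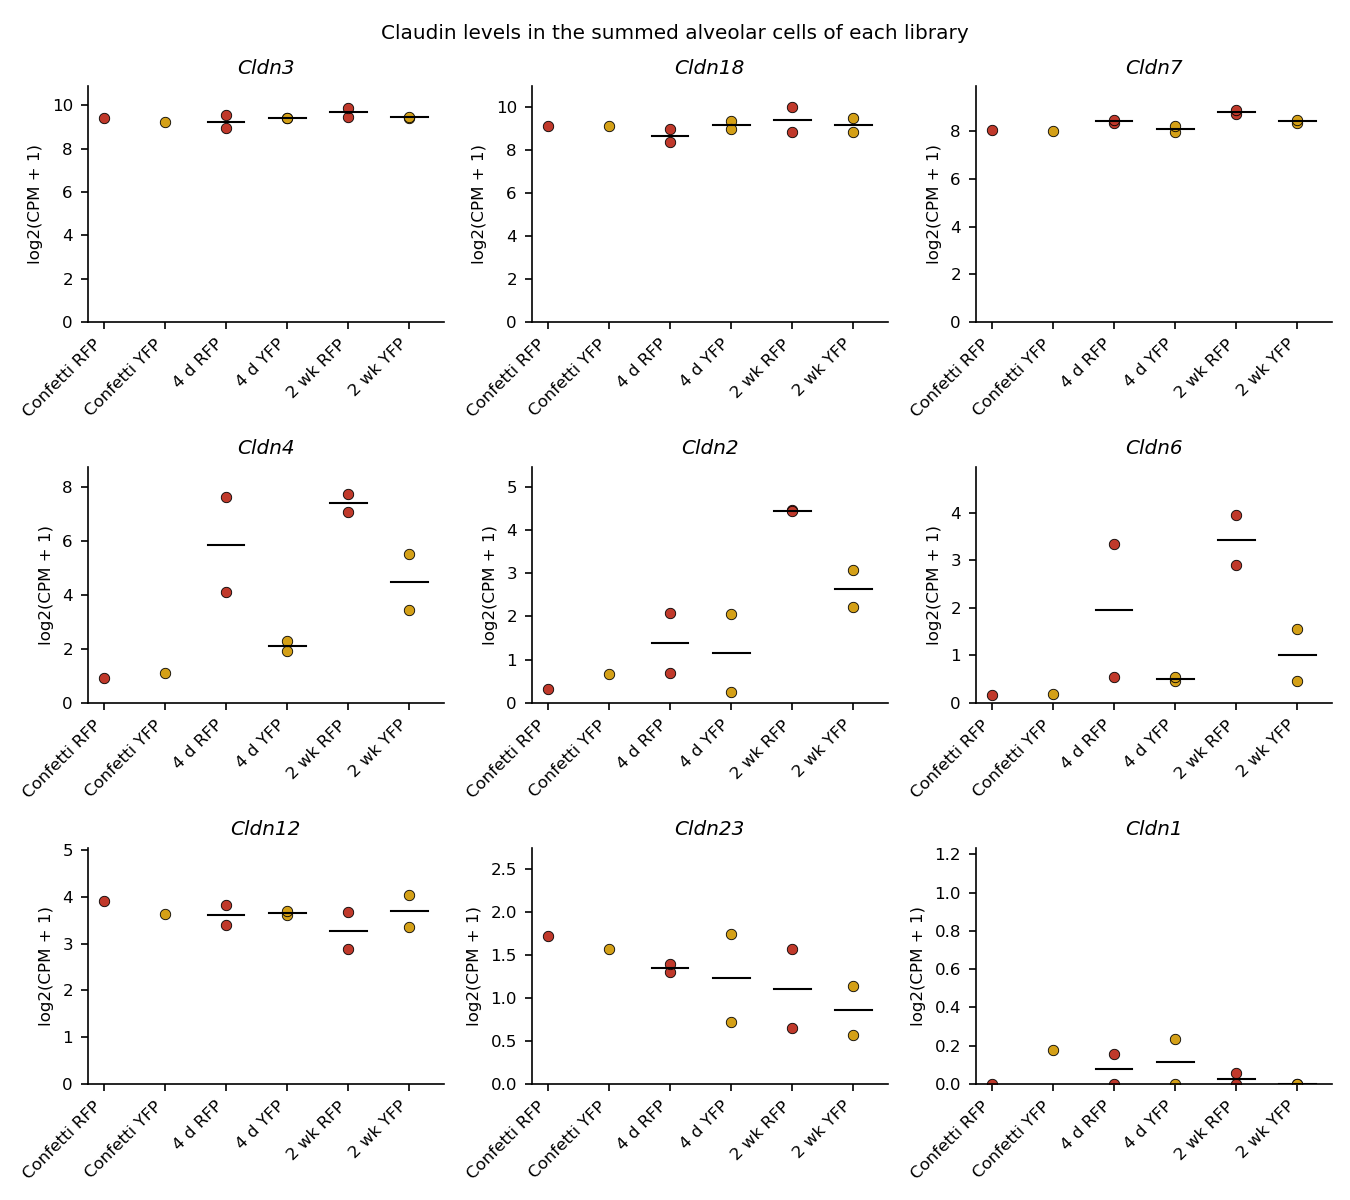
Level of each claudin on a log2(CPM + 1) axis in the summed alveolar cells of the 10 libraries, grouped by genotype, time and colour. Points are libraries (red RFP, yellow YFP) and bars the mean of a group's 2 libraries. Cldn3 spans 498 to 945 CPM, Cldn18 330 to 1010 CPM and Cldn7 253 to 476 CPM, while Cldn4, Cldn2 and Cldn6 are highest in 2 weeks RFP, and the 4 days RFP libraries lie far apart for Cldn4 and Cldn6.

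Of the 8 members tested, Cldn4 had the largest ratio of highest to lowest level, from 0.905 CPM in Confetti cells to 216 CPM in mutant cells. Cldn4 is a barrier-forming claudin that is low in resting AT2 cells and known to rise in injured alveoli. It was at 0.905 and 1.18 CPM in Confetti RFP and YFP, from 15 and 18 UMIs. In the Red2Kras RFP libraries it was at 16.3 and 199 CPM at 4 days and at 134 and 216 CPM at 2 weeks. In the Red2Kras YFP libraries it was at 2.82 and 3.92 CPM at 4 days and at 9.88 and 44.9 CPM at 2 weeks. Every Red2Kras library was above both Confetti libraries, and RFP and YFP overlapped only through 4 days RFP r1, which lay below 2 weeks YFP r2.

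In 2 weeks RFP against Confetti, Cldn4 rose by 7.40 ± 1.36 on the log2 scale (SE, adjusted p = 0.0417 in edgeR's quasi-likelihood test). The Confetti level in the fit was the mean of its RFP and YFP library, which were separate groups. The SE and p therefore drew only on the spread between r1 and r2 of the Red2Kras groups. The mean level was 175 ± 57.7 CPM (SD, n = 2) in 2 weeks RFP and 1.04 ± 0.193 CPM in Confetti (SD over its RFP and YFP library). Within Red2Kras, the RFP to YFP ratios of same-numbered libraries were 5.77 and 50.7 at 4 days and 13.6 and 4.81 at 2 weeks. The fitted difference over both times was 3.76 ± 0.89 with adjusted p = 0.0874 (0.0302 with the replicate number as a block, where 874 genes were called in all). At 4 days alone it was 4.98 ± 1.20 (adjusted p = 0.779) and at 2 weeks alone 2.70 ± 1.06 (adjusted p = 0.278), and the change between these was -2.28 ± 1.47 (adjusted p = 1.0). The 2 weeks YFP cells, wildtype neighbours of mutant cells, were at 27.4 ± 24.7 CPM (SD, n = 2), 4.70 ± 1.25 above Confetti on the log2 scale with adjusted p = 0.764.

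Cldn2, the pore-forming member, was the other claudin that passed the test. It was at 0.241 and 0.588 CPM in the Confetti libraries (4 and 9 UMIs). RFP cells had 0.606 and 3.25 CPM at 4 days and 21 and 20.7 CPM at 2 weeks, and YFP cells 0.188 and 3.16 CPM at 4 days and 3.62 and 7.37 CPM at 2 weeks. Both 2 weeks RFP libraries were above all 8 others, and at 4 days the r2 libraries of either colour were above the r1 libraries. In 2 weeks RFP against Confetti, Cldn2 rose by 5.77 ± 1.18 on the log2 scale (adjusted p = 0.0441 in edgeR's test). The RFP to YFP difference was 1.97 ± 0.94 at 2 weeks (adjusted p = 0.332) and 0.01 ± 1.12 at 4 days (adjusted p = 1.0). Cldn2 lies on the X chromosome, and the share of cells with Xist differed between the Confetti and the 2 weeks RFP libraries as given above. The part of sex in its difference was not tested.

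Cldn6, a claudin best known from embryonic and undifferentiated epithelium, followed Cldn4 at a lower level. Confetti RFP and YFP held 2 UMIs each, at 0.121 and 0.131 CPM. The RFP libraries were at 0.455 and 9.17 CPM at 4 days and 6.41 and 14.5 CPM at 2 weeks, and the YFP libraries at 0.376, 0.468, 0.377 and 1.92 CPM in the same order. RFP was above the same-numbered YFP library in each case, with ratios of 1.21, 19.6, 17 and 7.56, although 4 days RFP r1 overlapped the YFP range. The difference over both times was 3.42 ± 0.88 (adjusted p = 0.0942), and 2 weeks RFP against Confetti gave 6.32 ± 1.55 (adjusted p = 0.0515). With the replicate number as a block these adjusted p were 0.0321 and 0.00866, where 874 and 3163 genes were called in all. As a ratio of UMIs, 1086 in 2 weeks RFP against 4 in Confetti, it was 73.5 with an exact 95% interval of 28.6 to 270 that covers counting error only.

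The remaining members were low and did not pass the test in any comparison. Cldn12 lies at chr5:5489537-5514958 on the minus strand and stayed within 6.37 to 15.5 CPM over the 10 libraries. Cldn23, at chr8:35824712-35826559 on the minus strand, ranged from 0.481 to 2.35 CPM, with 356 UMIs in all. Cldn1, a sealing claudin of skin and many other epithelia at chr16:26356642-26371841 on the minus strand, had 9 UMIs over all alveolar cells and at most 3 in 1 library, so it was not tested. At this depth Cldn1 was not detectable beyond 3 UMIs in any alveolar sum.

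Over the 8 members tested, 2 of 8 were called in 2 weeks RFP against Confetti, both upward, and 0 in the other 8 comparisons, where edgeR gave 0 to 2 members an unadjusted p below 0.05 and DESeq2 called 0 to 2. The background was that 5.38% of all 13772 genes tested were called in 2 weeks RFP against Confetti. It was 0.00726% for RFP against YFP at 2 weeks, 0.0218% for 2 weeks YFP against Confetti and 0.029% for 4 days YFP against Confetti. It was 0% for RFP against YFP at 4 days, for RFP against YFP over both time points (12511 genes tested), for 4 days RFP against Confetti, and for the 2-week against 4-day comparison of either colour, although 794, 2685, 1214, 1523 and 230 genes in that order were below an unadjusted p of 0.05. The median log2 fold change of the 8 members in 2 weeks RFP against Confetti was 0.58, beside 0.03 over all genes tested, and 6 of 8 were higher. In RFP against YFP at 2 weeks it was 0.44 beside 0.01, with 7 of 8 higher, and at 4 days 0.04 beside 0.00, with 5 of 8 higher. The 2 calls rested on most of the libraries, since leaving out any 1 library other than a 4 days RFP library ended both (adjusted p up to 0.184 for Cldn4 and 0.191 for Cldn2), and so did adding the discarded cell types back.

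**Figure D2:**
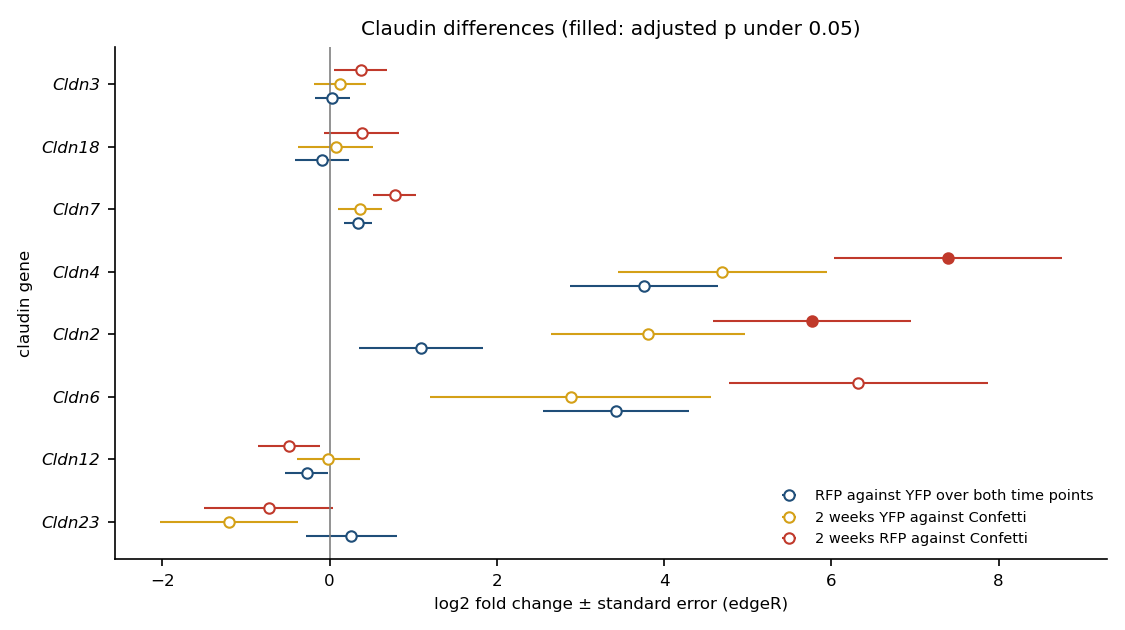
Log2 fold change with its standard error for the 8 claudins tested, in RFP against YFP over both time points (blue), 2 weeks YFP against Confetti (yellow) and 2 weeks RFP against Confetti (red). Filled points passed an adjusted p of 0.05. Cldn4 at 7.40 and Cldn2 at 5.77 in 2 weeks RFP against Confetti are the filled points, and Cldn3, Cldn18 and Cldn12 lie near 0.

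The makeup of claudin RNA differed between the libraries, and so did its sum. The 9 members summed to 1529 and 1423 CPM in the Confetti libraries, 1410 to 1604 CPM in the 4 days libraries, and 1504 to 2687 CPM at 2 weeks, where 2 weeks RFP r2 was highest. Cldn2, Cldn4 and Cldn6 together were 0.0828 and 0.133% of that sum in Confetti cells, 1.09 and 15% in RFP cells at 4 days, 9.19 and 9.34% in RFP cells at 2 weeks, and in YFP cells 0.211 and 0.502% at 4 days and 0.923 and 2.95% at 2 weeks. Cldn18 was 36.8 and 38.9% of the sum in Confetti, 31.5 and 23.4% in RFP cells at 4 days, 25.8 and 37.5% in RFP cells at 2 weeks, and 30.5 to 40.9% in the Red2Kras YFP libraries. Cldn4 was 14.1% of the sum in 4 days RFP r2 and 7.63 and 8.02% in 2 weeks RFP r1 and r2, so these last libraries differed in their Cldn18 share at like Cldn4 shares.

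In single cells, apart from the Confetti libraries and 4 days YFP r1, the libraries with more Cldn4 also had more cells with a Cldn4 UMI. With every cell thinned to 2000 UMIs, which left out 0 to 6 shallower cells per library, Cldn4 had a UMI in 0.184 and 0.127% of Confetti RFP and YFP cells, and in 1.78 and 19.4% of 4 days RFP cells. The share was 14.2 and 24.6% in RFP cells at 2 weeks, and in YFP cells 0.177 and 0.545% at 4 days and 0.592 and 2.48% at 2 weeks. Discarded immune cells, which should lack Cldn4, gave 0.494% at a median of 7093 UMIs before thinning, pooled over the libraries. The Confetti and 4 days YFP r1 shares were below that level, and the 95% Clopper-Pearson intervals of 4 days YFP r2 (0.312 to 0.884%) and 2 weeks YFP r1 (0.384 to 0.873%) included it. The pooled level is not that of each library, since 112 of the Cldn4 UMIs of immune cells were from 2 weeks RFP r2, and the 65 to 708 immune cells of each Confetti and 2 weeks YFP library held 0. Without thinning the shares were 35.1 and 49.9% in 2 weeks RFP and 0.315 and 0.405% in Confetti.

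Cldn2 and Cldn6 were found in far fewer cells. Cldn2 had a UMI in 3.51 and 3.18% of thinned 2 weeks RFP cells, 0.0526 and 0.177% of Confetti cells and at most 0.681% elsewhere, against 0.206% in immune cells. Cldn6 had a UMI in 0.915 and 2.56% of 2 weeks RFP cells and 0.108 and 0.70% of 4 days RFP cells, against 0 to 0.0711% of cells in the YFP and Confetti libraries and 0.0824% of immune cells. In 2 weeks YFP r2, 0 of 1009 cells had Cldn6 at this depth, although 0.595% of them had a UMI of it before thinning. By contrast Cldn3 had a UMI in 58.7 to 82.3% of cells, Cldn18 in 42.1 to 74.6% and Cldn7 in 37.0 to 56.8%, with Cldn7 highest in the 2 weeks RFP libraries.

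**Figure D3:**
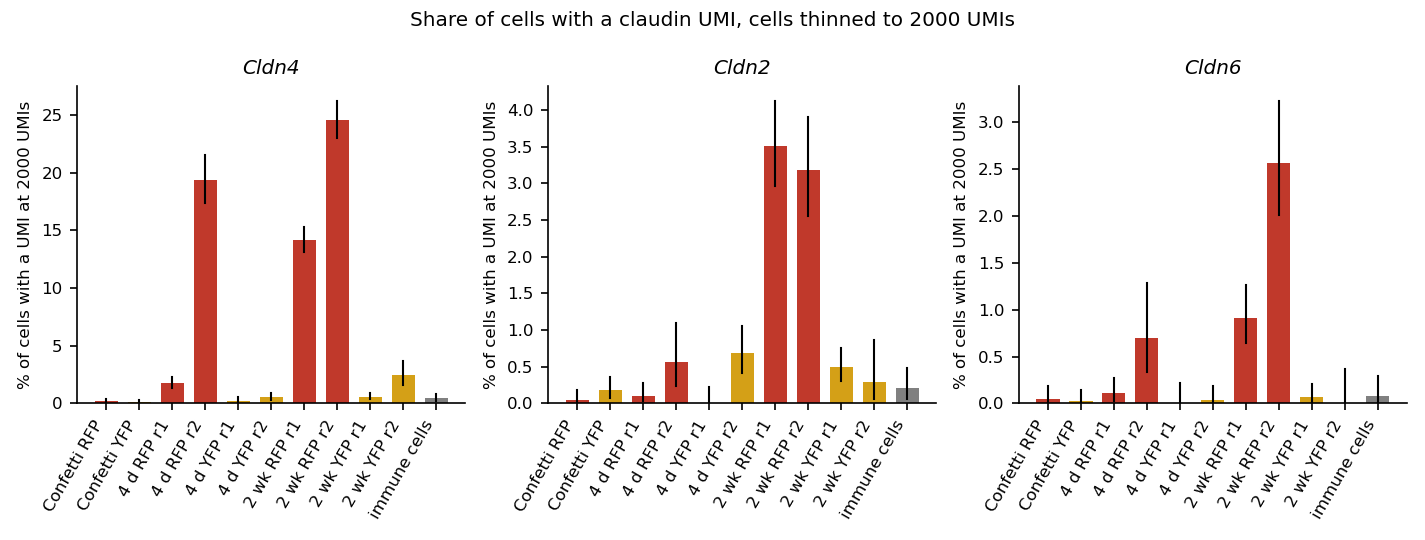
Percent of cells with at least 1 UMI of Cldn4, Cldn2 or Cldn6 after thinning every cell to 2000 UMIs, for the alveolar cells of each library and for discarded immune cells (grey). Lines are 95% Clopper-Pearson intervals, which cover counting error only. Cldn4 reaches 19.4% in 4 days RFP r2 and 14.2 and 24.6% in 2 weeks RFP, and the highest shares of Cldn2 and Cldn6 are 3.51 and 2.56%.

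The claudins also differed between clusters of alveolar cells, which were built without any claudin gene. Of 11 clusters over 29580 cells, 2 held most of the Cldn4 and Cldn6. One was a cluster with markers of damage-associated transient progenitors (DATP-like, 844 cells), a state that AT2 cells enter on injury, and the other a cluster led by Mcpt8, Procr and Gzme (1827 cells). The latter had nearly the same DATP score (1.54 against 1.63, mean z-score of 13 markers), and it stayed unnamed because its 10 leading genes held a marker of the Cd177 mixed list and none of the DATP list. When all cells were clustered together, a cluster led by Mcpt8 (2665 cells) was itself called DATP-like, so the contrast of the 2 clusters rests on the clustering used. Cldn4 was at 521 ± 51.8 CPM in the DATP-like and 515 ± 17.3 CPM in the Mcpt8-led cluster (SD over the 3 RFP libraries with at least 50 cells in it, 4 days RFP r2 and both 2 weeks RFP). In AT2-like clusters it was between 0.777 and 3.46 CPM on average. Thus 4 days RFP r2, at 491 CPM in DATP-like cells, was as high there as 2 weeks RFP r1, also at 491 CPM, and close to 2 weeks RFP r2 at 581 CPM.

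These 2 clusters held 94.8% of the Cldn4 UMIs of 4 days RFP r2, 83.6 and 88.7% of those of 2 weeks RFP r1 and r2, and 51.2% of those of 4 days RFP r1, where they held 49 of the cells. In 2 weeks YFP r2, 32 cells of these clusters, 3.17% of its alveolar cells, held 87.9% of the 280 Cldn4 UMIs, and in 2 weeks YFP r1 33 cells held 64.5% of 262. The part of sorting purity in these YFP cells was not tested. Cldn6 was at 42.5 ± 20.6 CPM in the DATP-like and 25.2 ± 13.7 CPM in the Mcpt8-led cluster (SD, n = 3) and on average at most 0.698 CPM in the other 9, and the 2 clusters held 92.1 to 97.5% of its UMIs in the 3 libraries with at least 20 UMIs of it.

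**Figure D4:**
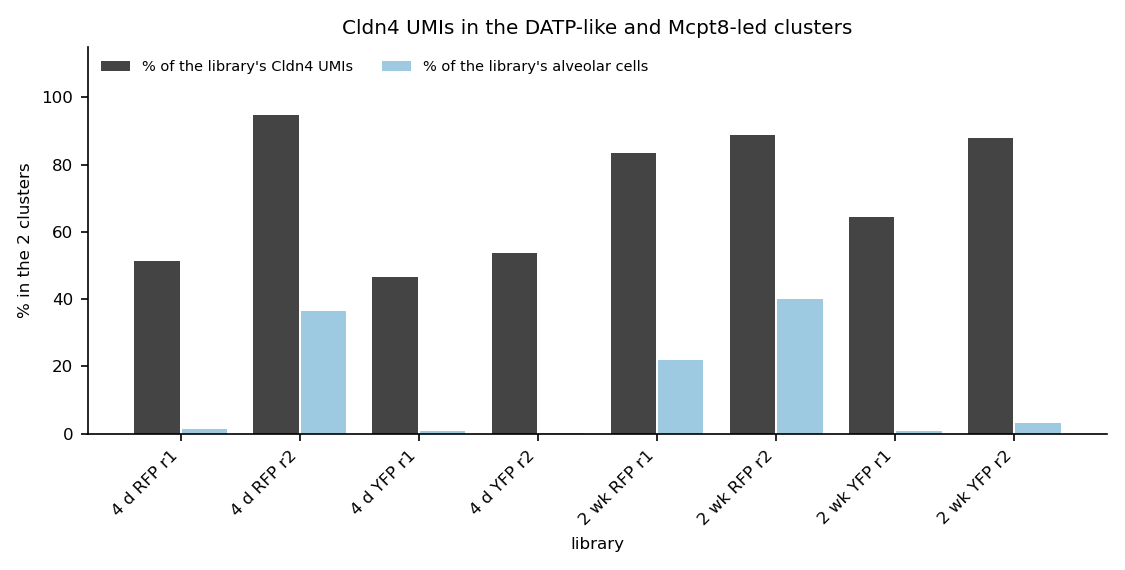
Percent of a library's Cldn4 UMIs (dark bars) and of its alveolar cells (light bars) that lay in the DATP-like and Mcpt8-led clusters, for the 8 Red2Kras libraries (the Confetti libraries had under 20 Cldn4 UMIs each). In 2 weeks YFP r2, 87.9% of the Cldn4 UMIs came from 3.17% of the cells.

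Cldn2 had another distribution. It was at 37.4 ± 16.2 CPM in the Cd177 mixed-like cluster (1651 cells, n = 2), at 48.8 CPM in 2 weeks RFP r1 and 25.9 CPM in r2, and at 2.59 ± 2.4 CPM in DATP-like cells (n = 3). Finer clustering (resolution 1.5) moved these means to 61.3 and 32.4 CPM. The name DATP-like there covered a cluster of 847 cells and another of 376 led by Mcpt1, Mcpt2 and Mcpt8. Of the latter, 93.88% were from 2 weeks RFP r1. In the Mcpt8-led cluster of the main clustering, Cldn2 was at 84.9 CPM in 2 weeks RFP r1 but at 16.8 CPM in r2 and 9.64 CPM in 4 days RFP r2. Thus 66.2% of the Cldn2 UMIs of 2 weeks RFP r1 lay in the Mcpt8-led cluster and 62.2% of those of r2 in the Cd177 mixed-like cluster.

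The abundant claudins were not even across states either. Cldn18 was lowest in DATP-like cells, at 177 CPM in 4 days RFP r2, 361 CPM in 2 weeks RFP r1 and 246 CPM in r2, and in each of these libraries it was higher in the Mcpt8-led cluster, at 841, 582 and 1620 CPM. Cldn3 was likewise lower in DATP-like cells (262, 375 and 535 CPM) than in the Mcpt8-led cluster (575, 628 and 1050 CPM) in all 3 libraries. Cldn7 was at 216 to 260 CPM on average in the 3 AT2-like clusters, and at 675 ± 94.5 CPM in the Mcpt8-led and 530 ± 175 CPM in the DATP-like cluster (SD, n = 3). With few libraries per cluster these levels are descriptions, and no test was made between clusters.

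**Figure D5:**
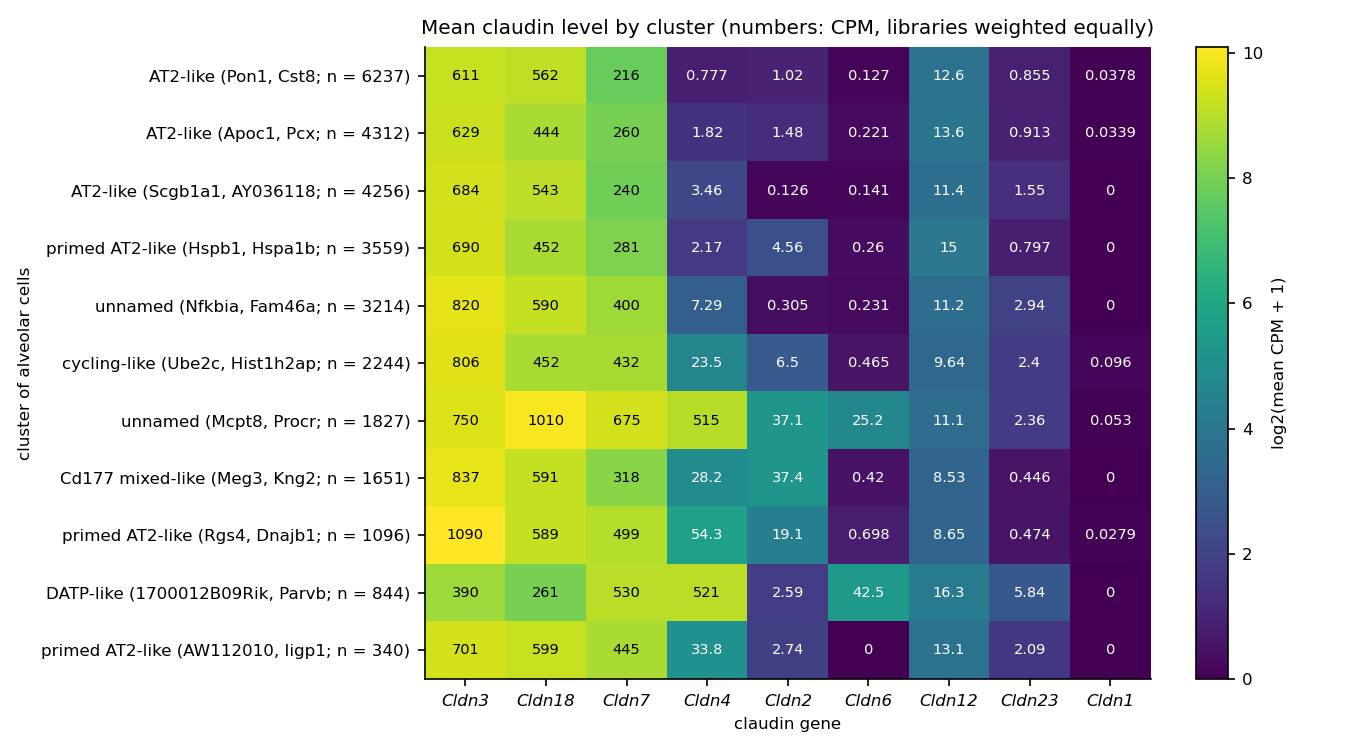
Mean level of each claudin (columns) in each of the 11 clusters of alveolar cells (rows, with the leading genes and cell number), as CPM over the libraries with at least 50 cells of the cluster. Colour is log2(mean CPM + 1). Cldn4 and Cldn6 stand out in the DATP-like and Mcpt8-led rows, Cldn2 in the Mcpt8-led and Cd177 mixed-like rows, and Cldn18 is lowest, at 261 CPM, in the DATP-like row.

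At the level of single cells, those with Cldn4 had less Sftpc and more Krt8, a keratin of transitional alveolar cells. In 2 weeks RFP r1, 81.2% of the 574 Cldn4-positive cells and 96.9% of the others had Sftpc at 2000 UMIs, and in r2 65.2% of 681 and 91.5%. In 4 days RFP r2 it was 29.2% of 277 and 82.6%. Krt8 was found in 92.3, 94.1 and 79.1% of the Cldn4-positive cells of these 3 libraries and in 60.6, 63.6 and 49.6% of the others. Cldn6 was found in 4.01, 6.90 and 2.89% of Cldn4-positive cells and in 0.403, 1.15 and 0.174% of the others. Cldn2-positive cells of the 2 weeks RFP libraries (142 and 88) had Cd177, a surface gene of the mixed state, in 11.3 and 20.5% of cases, against 2.56 and 4.63% of the others. Cells with UMIs of at least 4 members were 5.91 and 14.5% in 2 weeks RFP, 3.08% in 4 days RFP r2 and 0.473 to 0.924% in the other 7 libraries.

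Other claudins were rare in alveolar cells. Of the other 26 symbols that begin with Cldn, only the claudin domain gene Cldnd1 (7081 UMIs), Cldn8 (521), Cldn34c1 (244), Cldn15 (181) and Cldn10 (122) had at least 100 UMIs over all alveolar cells, and none of these 5 passed edgeR's test in any comparison. Cldn9 had 12 UMIs. Among lists of markers of other cell types, the mesothelial list was higher in 2 weeks RFP than in Confetti, like Cldn4. The airway secretory and ciliated lists were lower there. The airway secretory list of 8 genes summed to 5820 and 5670 CPM in Confetti, 1640 to 3970 CPM in the YFP libraries, 2770 and 397 CPM in 4 days RFP and 501 and 150 CPM in 2 weeks RFP. The mesothelial list of 7 genes summed to 0.0940 to 13.6 CPM in Confetti and YFP libraries, 2.12 and 43.3 CPM in 4 days RFP, and 38 and 60.5 CPM in 2 weeks RFP. Nearly all of it was Msln (2891 and 2464 UMIs in 2 weeks RFP), while the defining marker Wt1 was at 0 UMIs in all 10 libraries and Upk3b at 4 UMIs or fewer. The ciliated list of 8 genes summed to 138 and 131 CPM in Confetti, 58.8 to 124 CPM in the YFP libraries, 77.9 and 24.5 CPM in 4 days RFP and 34.9 and 29.8 CPM in 2 weeks RFP. Immune (11 genes) and endothelial (9) lists ranged over 12.2 to 29.8 and 15.8 to 44.7 CPM. A list of 10 stress genes was lowest in Confetti, at 2130 and 2120 CPM, with 8020 and 3690 CPM in 2 weeks RFP, 11400 and 3350 CPM in 2 weeks YFP, and 2310 to 4060 CPM at 4 days. The part of these cells and of stress in the claudin differences was not tested.

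The other genes of epithelial junctions moved less than Cldn4, Cldn2 and Cldn6. Of 30 tight junction genes other than claudins, 29 were tested, and 2 rose in 2 weeks RFP against Confetti, a share near the 5.38% of all genes called there in either direction. Ybx3, which encodes a tight junction-associated transcription factor, rose by 1.64 ± 0.34 on the log2 scale (adjusted p = 0.0441), and Epcam, whose product binds Cldn7 and which was the sort marker, rose by 1.42 ± 0.32 (adjusted p = 0.0458). None fell, and the list's median was 0.25 beside 0.03 over all genes. Tjp1 (ZO-1), the scaffold that claudins bind, was at 0.01 ± 0.24 (adjusted p = 0.979), occludin (Ocln) at 0.65 ± 0.31 (adjusted p = 0.187), Lsr of tricellular contacts at 0.92 ± 0.27 (adjusted p = 0.0697) and F11r (JAM-A) at 0.51 ± 0.26 (adjusted p = 0.213). Cingulin (Cgn) was at 0.25 ± 0.24 (adjusted p = 0.503) and Tjp3 at -0.27 ± 0.28 (adjusted p = 0.524).

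Of 18 adherens junction and desmosome genes tested, 0 passed edgeR's test in that comparison (4 had an unadjusted p below 0.05 and DESeq2 called 1), with E-cadherin (Cdh1) at -0.30 ± 0.25 (adjusted p = 0.44). Among the connexins, the genes of gap junctions, Gjb2 rose by 1.59 ± 0.31 (adjusted p = 0.0428) and Gjb5 by 5.26 ± 1.16 (adjusted p = 0.0455), whereas Gjb6 fell by 1.58 ± 0.34 (adjusted p = 0.0441). In the other 8 comparisons 0 genes of these 3 lists passed edgeR's test, with at most 6 of a list at an unadjusted p below 0.05 and at most 4 called by DESeq2.

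Among the genes that passed the filter, those whose log2(CPM + 1) followed Cldn4 most closely over the 10 libraries were Itga2 (Pearson r = 0.992), Plaur (0.99), Msln (0.986), Wincr1 (0.983) and Fam107b (0.982). Itga2, an integrin subunit, was at 104 and 146 CPM in 2 weeks RFP and 4.90 and 162 CPM in 4 days RFP, and was found in 45.5 and 9.98% of Cldn4-positive and other cells of 4 days RFP r2. The closest to Cldn6 were Mboat1 and Chst1 (0.993 each), Cd3eap (0.991), Fam78b (0.99) and 4833407H14Rik (0.989), and the closest to Cldn2 were Rnf128 (0.982), Fetub (0.98), Gapdh (0.97), Coq3 (0.968) and Susd3 (0.967). For Cldn7 they were Cd38 (0.978), Pigf (0.976), Tspan4 (0.976), Brix1 (0.975) and Anxa1 (0.975), for Cldn3 they began with Rp9 (0.968) and Gnas (0.959), and for Cldn18 with Ppil2 (0.975) and Stard3 (0.962). Cldn12 was most like Ubqln1 (0.914) and Cldn23 most like Trim37 (0.97). These are rankings over 10 libraries, of which 8 are Red2Kras and the 2 weeks RFP libraries the deepest, and they carry no test.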

How the data were processed

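Cells were sorted as EpCAM+ RFP+ or YFP+ from distal lung and profiled with 10x Genomics 3′ chemistry (v2 per the labels, v3 per the methods). The authors deposited raw UMI counts per gene and barcode, aligned to GRCm38 with Cell Ranger (3.1.0 in the submitters' notes, 5.0.1 in the file headers); gene symbols and barcodes are the other deposited columns. Intervals cover counting error only. Cells with at least 1000 genes, at most 50000 UMIs and at most 15% mitochondrial UMIs were kept (32698 of 42012), normalised, and clustered with scanpy 1.11.5 and Louvain (igraph 0.11.9, resolution 0.8) on 5000 variable genes without claudins. Clusters took a name only from listed markers. Doublets were kept in the main fit, with Scrublet calls left out as an alternative.

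Counts of alveolar cells were summed per library and tested with edgeR 4.0.16 (filterByExpr, TMM, quasi-likelihood F test, Benjamini-Hochberg over all genes, 0.05) in R 4.3.3, with 6 groups over 10 libraries, or colour and time over the 8 Red2Kras libraries. Standard errors are the log2 fold change over the square root of F. The fit was run on simulated counts with a dispersion of 0.05 for every gene and no deviations shared by same-numbered libraries. How it performs at the spread of these libraries was not tested. All 9 members were named in every comparison, other claudins from 100 UMIs, and up to 4 called genes per junction list and direction with 8 fixed partners. Members, lists and motifs were chosen with earlier results of these data known. Alternatives were DESeq2 1.42.0, RLE scaling, no filter, other cell sets, a replicate block and leaving out each library. Libraries pool lungs, and no source says that r1 and r2 came from separate mice, so p-values measure the spread between the Red2Kras libraries. Confetti RFP and YFP were separate groups in the fit and added no spread to it. No label gives a batch. The methods state that libraries were made over 2 days but not which on which day, so the part of the day was not tested, and no source says whether both colours of a number came from the same lungs. Some items are not reported here.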

Additional observations from a re-analysis of the deposited data

Results flagged for a closer look

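Of 18 sets of 4 libraries examined (9 claudins, the Red2Kras RFP and the YFP libraries), 3 held a library far from the other 3 by Dixon's 95% criterion, and chance alone gives about 1 in 20. Cldn4 in 2 weeks YFP r2 was at 44.9 CPM, far above the other YFP libraries at 2.82 to 9.88 CPM. Cldn6 in the same library was at 1.92 CPM against 0.376 to 0.468 CPM. This library had the highest share of discarded cells, 42.2%, and its 32 cells in the DATP-like and Mcpt8-led clusters held 87.9% of its Cldn4 UMIs. Cldn1 in 4 days YFP r2 was at 0.176 CPM, from 3 UMIs, with the other YFP libraries at 0.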

How the results depend on the processing

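The 2 claudins called in 2 weeks RFP against Confetti became 4 with DESeq2 and with the replicate block, 3 without the filter or without doublet candidates, 2 with RLE size factors, with cells of at least 500 genes or with only AT2-like and primed AT2-like cells, and 0 with discarded cell types included. Their log2 fold change stayed above 0 under all 18 alternatives (6.30 to 7.68 for Cldn4 and 5.14 to 6.38 for Cldn2), with adjusted p from 8.36e-55 to 0.184 and from 1.02e-24 to 0.191. DESeq2 called 1 claudin in RFP against YFP at 4 days, 1 at 2 weeks, 2 over both times, 2 in 4 days RFP and 2 in 2 weeks YFP against Confetti, and 1 in 2 weeks RFP against 4 days RFP. All genes called by DESeq2 numbered 111, 468, 1204, 256, 103 and 110 in that order. Without the filter the claudin counts were 2, 3, 3, 3, 3 and 1 in that order, 2 in 4 days YFP against Confetti, 1 in 2 weeks YFP against 4 days YFP and 1 in the change of the colour difference. All genes called without it numbered 504, 1385, 1937, 824, 535, 695, 134, 194 and 59 in that order. With only AT2-like and primed AT2-like cells, 24 and 16 genes were called in RFP against YFP at 2 weeks and over both times. Each set held 1 claudin. Leaving out each library gave 0 to 3 in 2 weeks RFP against Confetti, 0 to 2 over both times and in 4 days RFP against Confetti, and 0 to 1 in RFP against YFP at 4 days. All genes called in 2 weeks RFP against Confetti numbered 741 in the main fit, 0 with discarded cell types, 3245 without the filter, 2203 with DESeq2, 3163 with the replicate block, 468 in AT2-like and primed cells, and 1 to 1921 without 1 library. The other comparisons had 0 to 4 in the main fit and up to 1937 without the filter. The cause was not tested.

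The replicate block called 4 claudins in 2 weeks RFP against Confetti and 2 over both times, and 0 in the other comparisons. All genes called with the block were 3163 and 874 in that order, and 0 to 11 in the other comparisons. The replicate numbers were not used as pairs, since no source ties them to shared lungs or days and deviations of same-numbered libraries did not all correlate above 0.1. The correlation was 0.454 and 0.532 between the colours at 4 days and 2 weeks, where the r1 libraries also had similar shares of cells with Xist, and 0.018 to 0.24 between times.

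Directions turned only in values that did not pass the test. For Cldn2, RFP against YFP at 4 days ran from -1.57 (without 4 days RFP r2) to 3.21 as libraries were left out in turn, 4 days YFP against Confetti from -0.99 (without 4 days YFP r2) to 3.05, and the change of the colour difference from -1.25 (without that library) to 3.54. For Cldn4 that change was 1.49 in AT2-like and primed cells and ran from -3.17 to 0.44 (without 4 days RFP r2). In AT2-like and primed cells Cldn6 was -0.20 in RFP against YFP at 4 days and -0.73 in 2 weeks YFP against 4 days YFP, and Cldn23 was -1.10 (RFP against YFP, 4 days). For Cldn18, 2 weeks RFP ran from -0.41 to 0.76 against YFP and from -0.34 to 0.83 against Confetti, lowest without 2 weeks RFP r2. Cldn3 was -0.19 in 2 weeks YFP against Confetti with discarded cell types. Cldn12 ran from -0.31 (without 2 weeks YFP r1) to 0.41 in 2 weeks YFP against 4 days YFP. Cldn23 ran from -0.71 (without 2 weeks RFP r1) to 1.38 in RFP against YFP at 2 weeks, from -1.57 to 0.51 (without 4 days YFP r1) in 2 weeks YFP against 4 days YFP, and from -0.78 (without either) to 1.31 in the change. Shares of cells moved with depth, as given for all UMIs. The 2 libraries per Red2Kras group, the 1 Confetti library per colour and the few UMIs of Cldn6, Cldn2 and Cldn1 in Confetti cells limit what could be called.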

Other observations

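The cells that were discarded as non-alveolar differed from alveolar cells in their claudins. Cldn5, the endothelial claudin, was at 1020 ± 202 CPM in the endothelial clusters (SD over 3 libraries with at least 50 such cells) and had a UMI in 79.4% of 310 thinned endothelial cells, against at most 0.101% of alveolar cells of any library. Cldn1, nearly absent from alveolar cells, was at 42.0 ± 27.6 CPM in discarded immune cells and had a UMI in 5.64% of 2428 of them after thinning. Of 248 thinned ciliated cells (median 5802 UMIs before thinning), 81.9% held Cldn3, 65.3% Cldn7 and 8.06% Cldn10, against 4.78, 3.29 and 0.124% of immune cells and 9.35, 4.84 and 0% of endothelial cells (medians 7093 and 3734 UMIs). Their Cldn18 share, 14.1%, was no higher than the 14.3% of mesenchymal cells and is read as background. Cldn10 had a UMI in at most 0.694% of alveolar cells of any library. Mesenchymal cells, 91 after thinning, had Cldn15 in 8.79%, against 0.124% of immune and 0.968% of endothelial cells. These cells passed an EpCAM+ sort, come unevenly from the libraries, and were compared without a test.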
